A study of Mus musculus with 2 samples.

Results

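The genes described here are 47 genes of the lysosome in mouse splenic antigen-presenting cells (APCs): proteases, glycosidases, sulfatases and phosphatases, enzymes and carriers of lipids, and proteins of the lysosomal membrane. They were chosen by gene symbol, with earlier results of these data known. On the array 46 of the 47 had a probe set annotated with that single symbol, of 18193 genes so annotated, and Cd63 was not analysed here. Where a gene had several probe sets, the brightest by mean log2 signal stood for it. APCs were from the spleen of female C57BL/6 mice of 10 weeks, and in both conditions they shared an overnight culture with CD4+ T cells bearing the transgenic P25 T cell receptor. In the P25 culture the peptide P25 was added, which is taken from a mycobacterial antigen and is recognised by this receptor on MHC class II. The other culture received medium in its place, so the T cells were present but had no added peptide. APCs were then enriched, RNA of 3 independent experiments was mixed, and 1 array was hybridised per condition.

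The lysosome is the acidic compartment in which cells break down proteins, sugars, sulfated glycans and lipids taken up or delivered by autophagy. In APCs the same compartment trims antigens and the invariant chain (Cd74) so that peptides can be loaded on MHC class II. A proton pump, the vacuolar ATPase, keeps it acidic, and the transcription factor TFEB raises many lysosomal genes through a short promoter sequence known as the CLEAR element.

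The core letters of the CLEAR element, TCACGTGA, were looked up in the 250 bases before the annotated start of the 40 of these genes that matched the RefSeq promoter table (GRCm38.p6). They were found in 6 of the 40 genes (15.0%), against 0.907% of all 27025 genes of that table. These letters read the same on both strands and contain the shorter E-box CACGTG, which 13 of the 40 genes held (32.5%, against 6.86% of all genes). The promoters of Ctsd and Ifi30 are shown whole because both hold the element and their ratios lay on opposite sides. The other stretches show the element with up to 16 bases on each side, each written 5′ to 3′ on the strand of the gene with the element in capitals.
Ctsd, chr7:142387828-142388077, minus strand: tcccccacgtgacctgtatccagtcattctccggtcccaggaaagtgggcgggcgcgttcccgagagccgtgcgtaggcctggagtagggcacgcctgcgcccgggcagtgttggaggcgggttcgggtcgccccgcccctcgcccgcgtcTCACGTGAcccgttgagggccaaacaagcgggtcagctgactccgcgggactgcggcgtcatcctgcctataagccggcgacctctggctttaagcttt
Ifi30, chr8:70766664-70766913, minus strand: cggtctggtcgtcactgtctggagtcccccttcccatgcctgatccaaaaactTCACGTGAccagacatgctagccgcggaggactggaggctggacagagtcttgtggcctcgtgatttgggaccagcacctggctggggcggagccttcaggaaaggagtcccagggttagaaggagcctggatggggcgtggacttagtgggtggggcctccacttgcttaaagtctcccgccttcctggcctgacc
Ctsa, chr2:164833744-164833772, plus strand: aacaatgagcaaactgTCACGTGAtgcag
Mcoln1, chr8:3500457-3500496, plus strand: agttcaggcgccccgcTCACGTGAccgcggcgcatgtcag
Atp6v1a, chr16:44139368-44139407, minus strand: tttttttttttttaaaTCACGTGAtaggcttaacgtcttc
Gla, first copy, chrX:134601210-134601249, minus strand: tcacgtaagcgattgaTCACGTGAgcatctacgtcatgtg
Gla, second copy, chrX:134601177-134601216, minus strand: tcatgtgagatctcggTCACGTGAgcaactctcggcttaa

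Most of these genes had a lower signal in APCs cultured with P25. A gene was called measured when at least 1 array lay above a floor of 10.3, under which 40% of all signals on the arrays lay, and 45 of the 46 were measured, each above the floor on both arrays. Of the 45, 7 were at least 2-fold lower with P25, 1 was at least 2-fold higher and 37 were within 2-fold. Over all 12897 measured genes, 7.22% were at least 2-fold lower and 9.43% at least 2-fold higher, so the share of these genes was 15.6% on the lower side and 2.22% on the higher side. Their log2 ratio of P25 over medium was below 0 in 34 of 45 genes (75.6%, against 48.6% of all genes). It was below 0 in 30 of 45 with both arrays brought to one median and in 36 of 45 with both brought to one trimmed mean. These scalings shifted all genes as well, to median log2 ratios of 0.15 and -0.05. The median log2 ratio was -0.50, or 1.41-fold lower, against 0.02 over all genes. The signal summed over the 46 genes differed less, with 35202 with P25 and 36863 with medium. That sum rests mostly on the brightest genes. By class it was higher with P25 for the cysteine proteases and for the other proteases with Ifi30, and lower for every other class. Within 2-fold, 15 genes had log2 ratios from -1 to -0.5, 18 were closer to 0 than 0.5, and 4 lay from 0.5 to 1.

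There was no replicate array, hence no p-value and no spread between samples, and the values below are described and not tested. Probe sets of one gene gave a gauge of technical disagreement, with an SD of 0.63 in log2 ratio between the brightest pair above the floor in 24 of these genes and of 0.58 in 5293 genes of the whole array. Ratios smaller than this cannot be told from disagreement between probe sets. Larger ratios are not all clear of it, because the largest difference was 1.96 in the 24 genes and 3.47 in the 5293. The gauge compares probe sets on the same arrays, so it holds no variation between arrays, RNA pools or cultures. In bulk RNA fewer cells of a type and less RNA per cell cannot be told apart. The arrays had 95th percentiles of the signal of 875 (P25) and 785 (medium), and medians of 17.96 (P25) and 18.36 (medium). Ratios of the 3′ to the 5′ control probe set were 1.23 (P25) and 1.26 (medium) for actin, and 0.73 (P25) and 0.79 (medium) for Gapdh. Class II genes that mark APCs were bright, with Cd74 at 8750 with P25 and 8934 with medium, while of 12 T cell genes on the array 4 (Cd3d, Cd3e, Cd247 and Cd4) were below the floor on both arrays and 8 were measured, with signals up to 37.2 with P25 and 85.2 with medium.

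**Figure D1:**
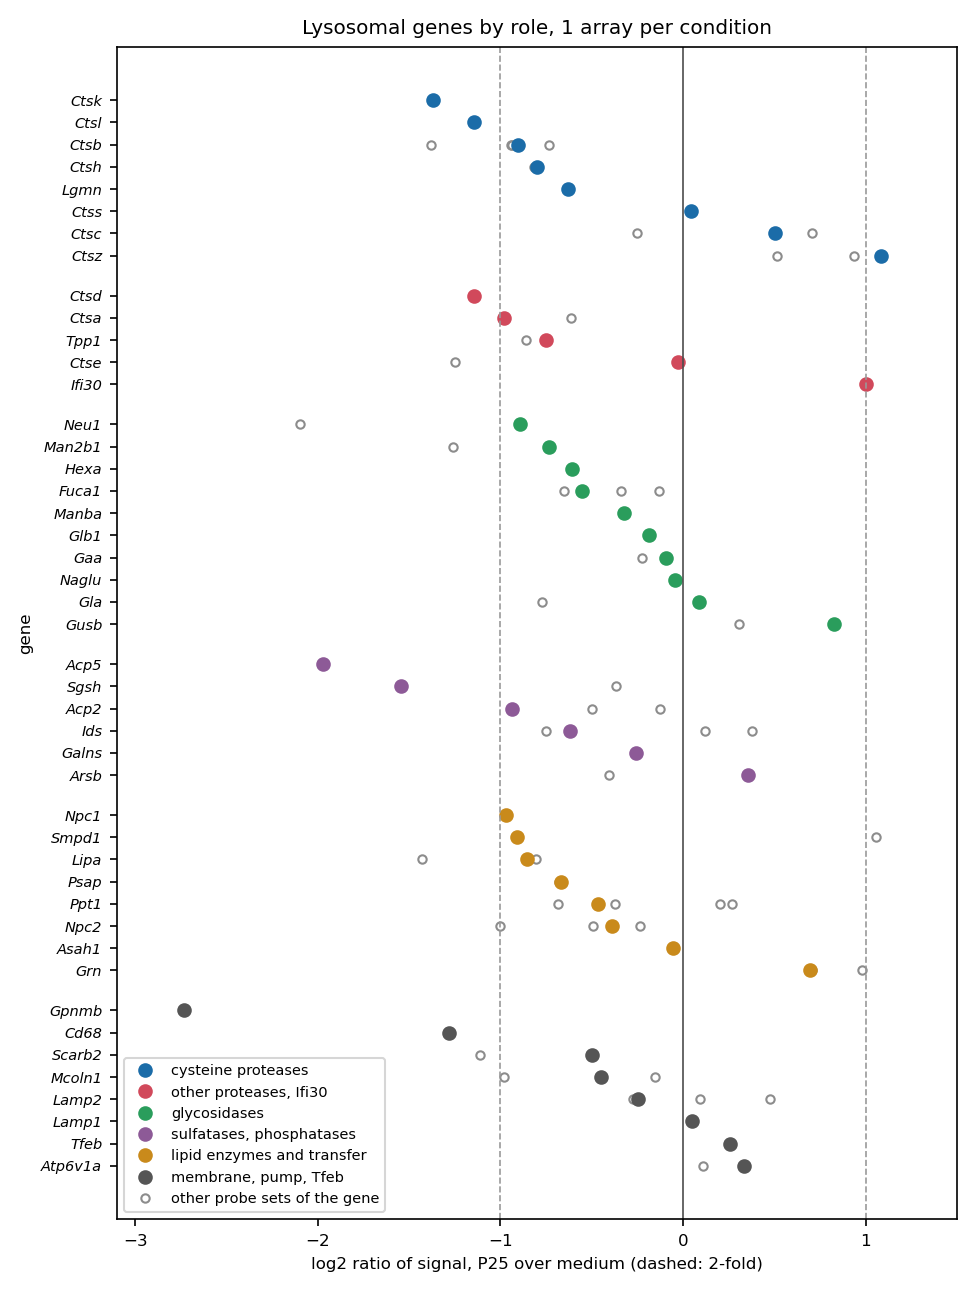
Log2 ratio of signal, P25 over medium (x axis), for the 45 measured lysosomal genes (y axis), grouped by role. Filled points are the brightest probe set of a gene and open points its other measured probe sets; 34 filled points lie below 0, and Gpnmb at -2.73 is farthest from it.

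Among the 8 cysteine proteases, 2 were at least 2-fold lower, 1 was at least 2-fold higher and 5 were within 2-fold, with a median log2 ratio of -0.71. Their summed signal lay on the other side, with 16207 with P25 and 14539 with medium. Ctsl, the endopeptidase cathepsin L, had a signal of 110.0 with P25 and 243 with medium, 2.21-fold lower, and was under 2-fold with both arrays brought to one median or one spike-in level. Ctsk, a collagen-degrading protease best known from osteoclasts, had 10.9 with P25 and 28.1 with medium, 2.58-fold lower, but its P25 signal lay just above the floor, and it was not measured when the floor was raised to the 60th percentile. Cathepsin B, which can cut proteins internally or from their end, was lower on every one of its 5 probe sets. The brightest of Ctsb had 866 with P25 and 1623 with medium (1.87-fold lower), and the log2 ratios of all 5 ran from -1.38 to -0.73. Ctsh, an aminopeptidase, had 1725 with P25 and 2999 with medium, 1.74-fold lower, and its other probe set gave a log2 ratio of -0.82. Lgmn, the asparagine-specific protease legumain, was 1.55-fold lower (273 with P25, 423 with medium).

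Not all cysteine proteases lay on the lower side. Ctsz, a carboxypeptidase also called cathepsin X, was the only gene at least 2-fold higher, with a signal of 5474 with P25 and 2580 with medium, 2.12-fold. Its other probe sets gave log2 ratios of 0.94 and 0.51 beside 1.09 on the brightest, so all 3 were above 0 but 1 passed 2-fold, and their median was under it. Ctss, which cleaves the invariant chain in B cells and dendritic cells, had 4425 with P25 and 4298 with medium, a log2 ratio of 0.04. Ctsc, which activates the serine proteases of granules, had 3322 with P25 and 2345 with medium (1.42-fold higher) and probe sets from -0.25 to 0.71 in log2 ratio. The proteases of this family therefore spread over a range of log2 ratios from -1.37 to 1.09.

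Ifi30 encodes the interferon-inducible lysosomal thiol reductase, which opens disulfide bonds of antigens. It had a signal of 3503 with P25 and 1752 with medium. That ratio of 1.9994 was just under 2-fold, and it passed 2-fold when both arrays were brought to one median or one spike-in level. Of the proteases outside the cysteine class, Ctsd, Ctsa and Tpp1 lay on the lower side. Ctsd, the main aspartic protease of lysosomes, had 282 with P25 and 624 with medium, 2.21-fold lower, and was under 2-fold with the spike-in level. Ctsa, a carboxypeptidase that also protects the sialidase and the β-galactosidase, had 483 with P25 and 952 with medium, 1.97-fold lower. Tpp1, which removes tripeptides, was 1.68-fold lower (734 with P25, 1232 with medium), and its other probe set gave -0.86 in log2 ratio. Ctse, an endosomal aspartic protease, was undecided: its brightest probe set had 173.9 with P25 and 177 with medium, and the other had 72.1 with P25 and 171.0 with medium, a log2 ratio of -1.25. On the brightest the log2 ratio was -0.03, and its sign turned with both arrays brought to one median or one spike-in level.

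**Figure D2:**
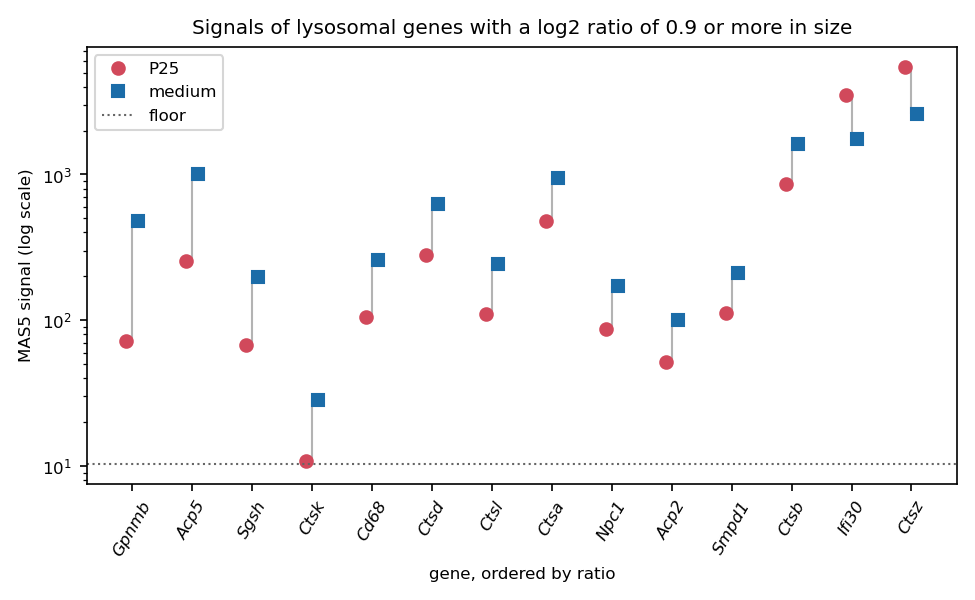
MAS5 signal on a log axis (y) for the 14 lysosomal genes with a log2 ratio of at least 0.9 in size (x, ordered by ratio), with the P25 array as circles, the medium array as squares and the floor dotted. The circle lies under the square in 12 genes and above it in Ifi30 and Ctsz, and the Ctsk circle lies near the floor.

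None of the 10 glycosidases reached 2-fold, with a median log2 ratio of -0.26. Neu1, the lysosomal sialidase, had 112 with P25 and 207 with medium, 1.86-fold lower, and a dim second probe set, under the floor with P25, gave -2.10 or lower in log2 ratio. The α-mannosidase Man2b1 had 555 with P25 and 923 with medium, 1.66-fold lower, with -1.26 on its other probe set. Hexa, a subunit of β-hexosaminidase, and Fuca1, the α-fucosidase, were 1.52-fold and 1.47-fold lower. These 4 enzymes remove sugars mainly from glycoproteins and gangliosides. Manba, the β-mannosidase, and Glb1, the β-galactosidase, had log2 ratios of -0.32 and -0.19. Gaa, which degrades glycogen, and Naglu, which acts on heparan sulfate, had log2 ratios of -0.09 and -0.04, both above 0 with the arrays brought to one median. Gla, the α-galactosidase whose promoter holds the element above in 2 copies, was dim, with 39.1 with P25 and 36.8 with medium, and its other measured probe set, under the floor with P25, gave a log2 ratio of -0.77 or lower. Gusb, the β-glucuronidase, had the highest ratio of this class, with 453 with P25 and 255 with medium (1.78-fold higher), while its other probe set gave 0.31 in log2 ratio.

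Of the sulfatases and phosphatases, 2 of 6 were at least 2-fold lower and none was at least 2-fold higher, with a median log2 ratio of -0.78. Acp5, the tartrate-resistant acid phosphatase of osteoclasts and macrophages, had 255 with P25 and 999 with medium, 3.92-fold lower, which was the 59th lowest ratio of all 12897 genes. Sgsh, a sulfatase of heparan sulfate, had 67.5 with P25 and 196.7 with medium, 2.92-fold lower, but its dimmer probe set, under the floor with P25, gave a log2 ratio of -0.37 or lower. Acp2, the other lysosomal acid phosphatase, was 1.91-fold lower (52.1 with P25, 99.6 with medium), with log2 ratios up to -0.13 on its other probe sets. Ids, the iduronate sulfatase, was 1.53-fold lower, but its measured probe sets had log2 ratios up to 0.38, and the lowest was -0.75 or lower, with P25 under the floor. The sulfatases Galns and Arsb had log2 ratios of -0.26 and 0.36, the second with -0.40 on another probe set.

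The genes of lipid breakdown and transfer were within 2-fold in all 8 cases, 7 of them below 0, with a median log2 ratio of -0.57. Npc1, the membrane protein that exports cholesterol from lysosomes, had 87.7 with P25 and 172 with medium, 1.96-fold lower. Its soluble partner Npc2 was 1.31-fold lower (1337 with P25, 1748 with medium), with log2 ratios between -1.001 and -0.24 on its 4 probe sets. Lipa, the acid lipase that frees cholesterol and fatty acids, was 1.81-fold lower, with all 3 probe sets from -1.43 to -0.80. Psap, the precursor of the saposins that assist sphingolipid breakdown, had 1728 with P25 and 2743 with medium, 1.59-fold lower, and its second probe set gave -0.68. Smpd1, the acid sphingomyelinase, had opposite values on its probe sets: the brighter had 112 with P25 and 210 with medium, and the other had 77.7 with P25 and 37.4 with medium, log2 ratios of -0.91 and 1.06. Ppt1, a thioesterase that removes palmitate from proteins, had -0.47. Its 5 probe sets ran from -0.68 to at least 0.27, the highest being dim, with medium under the floor. Asah1, the acid ceramidase, had -0.05, a value above 0 with the arrays brought to one median. Grn, the precursor of the granulins and a lysosomal glycoprotein, was the exception on the higher side. Its brightest probe set had 2503 with P25 and 1545 with medium (1.62-fold higher), and log2 ratios on all 3 lay between 0.70 and 0.98.

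Membrane proteins held the lowest ratio of these genes. Gpnmb, a glycoprotein of phagocytes and melanocytes that is a known target of factors related to TFEB, had 71.9 with P25 and 479 with medium, 6.65-fold lower. That was the 6th lowest ratio of all 12897 measured genes, and its other probe set was below the floor on both arrays. Cd68, a membrane glycoprotein used as a macrophage marker, had 105.9 with P25 and 258 with medium, 2.44-fold lower. The structural proteins of the membrane lay closer to 0. Lamp1 had 1140 with P25 and 1102 with medium, a log2 ratio of 0.05 that came below 0 with both arrays brought to one trimmed mean. Lamp2 had a log2 ratio of -0.25, with values between -0.27 and 0.48 over its 4 probe sets. Scarb2, an integral protein of the lysosomal membrane, was 1.41-fold lower, with -1.11 on its other probe set. Mcoln1, a calcium channel, was 1.36-fold lower, with log2 ratios of -0.98 and -0.15 on its other probe sets.

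Atp6v1a, the catalytic subunit of the proton pump, had 434 with P25 and 344 with medium, 1.26-fold higher, with 0.11 on its other probe set. Atp6v0d2, a pump subunit found in osteoclasts and macrophages, was below the floor on both arrays. Tfeb itself had 181 with P25 and 151 with medium, 1.20-fold higher and within the disagreement between probe sets. The 6 genes with TCACGTGA in their promoter had 3 log2 ratios below 0 (Ctsd, Ctsa and Mcoln1) and 3 above it (Gla, Atp6v1a and Ifi30), with a median of -0.18, and Gla was below 0 with the median over its probe sets. The 33 measured genes whose promoter window did not hold these letters had a median of -0.55, with 25 of 33 below 0. The letters STAT factors bind, TTCNNNGAA, were in 1 of the 40 promoters (Ctsc), against 8.13% of all genes, and they read alike on both strands. The letters of interferon-stimulated response elements, 2 blocks of GAAA with 2 bases between them on either strand, were in 2 of the 40 (Ctss and Lamp1), against 3.46% of all genes.

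Other genes of the lysosome were mostly within 2-fold, like measured genes as a whole, of which 7.22% were at least 2-fold lower and 9.43% higher. Of 40 further measured lysosomal genes, 3 were at least 2-fold lower, near the share over all genes. Of the same 40, 1 was at least 2-fold higher and 36 were within 2-fold, with a median log2 ratio of -0.25. The lowest were Ctns, the cystine exporter, at 2.44-fold lower (24.6 with P25, 59.8 with medium), Gm2a, an activator protein of ganglioside breakdown, at 2.05-fold lower, and Sidt2 at 2.05-fold lower. With both arrays brought to one median, 1 of these 3 was still at least 2-fold lower. Slc11a1, the metal transporter of phagosomes, followed at 1.98-fold lower. The highest above the floor on both arrays were Nagpa (1.72-fold) and M6pr (1.55-fold), which act in the mannose phosphate sorting of hydrolases, the peptidase gene Scpep1 (1.57-fold) and the TFEB relative Tfe3 (1.21-fold). Tfec, another relative of TFEB, had 25.2 with P25 and 9.74 with medium, which is under the floor, so it was at least 2.45-fold higher. None of 15 other measured genes of the proton pump reached 2-fold, with a median log2 ratio of -0.07 and a range from -0.72 to 0.54.

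The cystatins, inhibitors of cysteine cathepsins, were looked at because their targets are listed above, and they are named after their values were seen. Cst3, the secreted cystatin C, had 836 with P25 and 2017 with medium, 2.41-fold lower. Cst7, cystatin F, an inhibitor that is sorted to lysosomes and acts on cathepsin C, had 50.7 with P25 and 6.97 with medium, again under the floor, and was at least 4.93-fold higher. Cstb, a cytosolic inhibitor, was 1.32-fold higher (1548 with P25, 1176 with medium).

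Macrophage and monocyte markers were also lower with P25. Of 13 measured ones, 10 were at least 2-fold lower, none was at least 2-fold higher, and the median log2 ratio was -1.32 or lower, since 4 of them (among them the median gene) were under the floor with P25, with a summed signal over the list of 1375 with P25 and 3241 with medium. The markers C1qa, C1qc, Cd163, Marco and Siglec1 were below the floor on both arrays. Neutrophil markers had a median log2 ratio of -1.17 (8 of 10 at least 2-fold lower, summed signal 6996 with P25 and 12960 with medium). B cell markers had a median of -0.63 (3 of 11 at least 2-fold lower, summed signal 24096 with P25 and 34142 with medium), and dendritic cell markers of -0.83 (3 of 8 lower and 1 higher, summed signal 517 with P25 and 908 with medium). T cell markers had a median of -0.23 (2 of 8 lower, summed signal 204 with P25 and 286 with medium), and natural killer cell markers of -0.17 (1 of 5 lower, summed signal 102 with P25 and 142 with medium). With the floor raised to the 60th percentile the median log2 ratio was -0.97 for the macrophage and monocyte markers (7 measured), -0.31 for dendritic cell markers (5 measured) and -0.84 for T cell markers (2 measured), and the 1 natural killer cell marker still measured had -0.99. The part of these marker differences in the ratios of the lysosomal genes was not tested. The 10 measured MHC class II genes comprise the class II chains, the invariant chain, factors of peptide loading and the regulator Ciita. All had a log2 ratio below 0, with a median of -0.31 and 2 at least 2-fold lower. Of these 10, 2 (H2-DMb2 and Cd74) were above 0 with both arrays brought to one median.

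**Figure D3:**
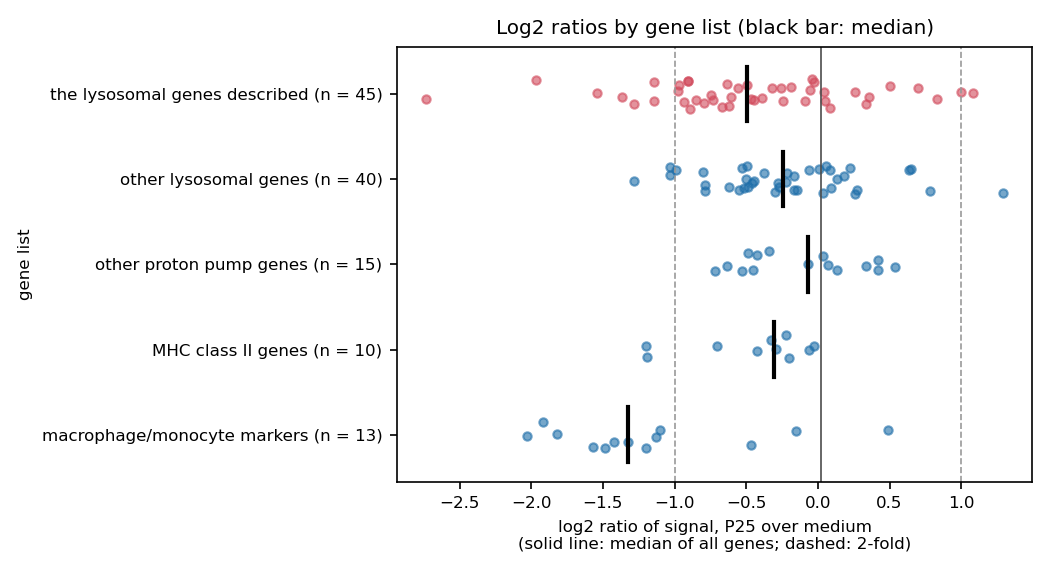
Log2 ratio of signal, P25 over medium (x axis), of measured genes in 5 lists (y axis), with a point for each gene, a black bar at the median of a list and a solid line at the median of all genes. The median of the lysosomal genes described (-0.50) lies between those of other lysosomal genes (-0.25) and of macrophage and monocyte markers (-1.32, with signals under the floor raised to it).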

How the data were processed

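Total RNA (1 µg) was labelled with biotin by the Affymetrix One-Cycle reagents, per the labels' protocols. The authors deposited linear MAS5 signal intensities from GCOS, per the submitters' processing notes. No version or scaling target is stated in the sources used here. Mismatch subtraction makes ratios of dim probe sets noisy, and a scaling difference shifts all ratios together.

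Of 45101 probe sets, 64 controls were left out, and 34945 with a single gene symbol were named through the platform annotation and a RefSeq table. Signals under the floor were raised to it, and "at least" or "or lower" marks a ratio with 1 such array. Log2 ratios were computed with Python 3.11.15 and pandas 2.3.3, and the calculation was tested on simulated arrays. With 1 array per condition no test was run, and the number of arrays limits the precision. Batch and treatment cannot be told apart. All members are reported. Of the other lysosomal genes, the 4 highest and 4 lowest above the floor on both arrays are named, plus those counted past 2-fold. Members, lists and settings were chosen with earlier results of these data known. Promoters are from RefSeq (GRCm38.p6). Alternatives were another floor or none, 3 scalings of the arrays and 3 choices of probe set.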

Additional observations from a re-analysis of the deposited data

How the results depend on the processing

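The median log2 ratio of the lysosomal genes stayed below 0 under all 8 alternatives, from -0.61 without the probe set kinds that may cross-hybridise to -0.35 with spike-in scaling. Median and spike-in scaling moved the median of all genes to 0.15 and 0.16, and relative to all genes the lysosomal median was -0.50 with either, against -0.52 on the deposited scale. A scaling shifts both medians nearly alike, so this difference could hardly move. It was -0.37 with the second brightest probe set, -0.45 with the median over probe sets and -0.62 without the kinds that may cross-hybridise. Median and spike-in scaling also moved the share of higher among all calls to 71.0% and 71.6%, against 56.6%. Genes at least 2-fold lower numbered from 5 to 10, and the share over all genes moved too. The 10 came with trimmed-mean scaling, where 8.63% of all genes were at least 2-fold lower. The 5 came with spike-in scaling (4.93% of all genes) and, among 27 genes, with the second brightest probe set (7.60% of all genes). With median scaling Ctsl, and with spike-in scaling Ctsl and Ctsd, were under 2-fold. With trimmed-mean scaling Ctsa, Acp2 and Npc1 passed 2-fold. With the median over probe sets Sgsh was under 2-fold and Neu1 was past it, each with a dim probe set whose P25 signal was raised to the floor. Without the probe set kinds that may cross-hybridise Ctse and Lipa passed 2-fold. With the 60th percentile floor Ctsk was not measured. Genes at least 2-fold higher numbered 2 with median and spike-in scaling (Ctsz and Ifi30), where 12.4% and 12.5% of all genes were higher. They numbered 0 with the median over probe sets, where Ctsz was under 2-fold and 8.07% of all genes were higher. The second brightest probe set, available in 27 of these genes, left 22 on the same side of 0. On it Ctsz and Sgsh were under 2-fold, Ctse, Man2b1, Neu1, Lipa and Scarb2 were at least 2-fold lower, and Smpd1 was at least 2-fold higher. Over the whole array it gave 576 higher and 466 lower calls among 6132 genes, fewer because fewer genes have one, and the 60th percentile floor gave 591 lower calls. Of the further lysosomal genes, 0 were at least 2-fold higher with that floor or the second probe set (9.89% and 9.39% of all genes). With median and with spike-in scaling, 1 of them was at least 2-fold lower (5.05% and 4.93% of all genes). No paired analysis was possible because each condition has 1 array. Ratios of probe sets near the floor are limited by their low signal.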
